A study of Mus musculus with 6 samples.

Results

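Fragments of spliceosomal small nuclear RNAs (snRNAs) were followed through 6 small RNA libraries. They came from mouse spermatogonial stem cells in culture, which renew themselves and give rise to sperm in the testis. A fragment was a read of 18 to 35 nt that matched, exactly and in sense, a gene of the biotype snRNA in GENCODE M21 (build GRCm38, also called mm10). Genes with at least 20 such reads over the 6 libraries together were kept, which left 641 of 1383 annotated snRNA genes, out of 778 with at least 1 read. The kept genes shared 384003 reads in 10535 distinct sequences. The members were thus chosen by their read totals, which are given as a description. At the edge of the choice, 2 genes had 19 reads and 6 had 18 reads, while 1 gene had 20, 1 had 21 and 7 had 22.

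The spliceosome removes introns from pre-mRNA. U1 pairs with the 5′ splice site and U2 with the branch point, U4 and U6 enter as a paired complex with U5, and U6 and U2 then form the catalytic centre. Rare introns use U11, U12, U4atac and U6atac in place of U1, U2, U4 and U6, with the same U5. U7 is not a spliceosomal RNA: it guides the cutting of histone pre-mRNA 3′ ends. In germ cells, Piwi proteins such as MILI (gene Piwil2) carry piRNAs, which are somewhat longer than microRNAs and often begin with U, read as T in the sequences here. Hen1 (gene Henmt1) adds a methyl group to the 2′ hydroxyl of the last nucleotide of a piRNA. NaIO4 oxidises a last ribose with free 2′ and 3′ hydroxyls, and such RNAs then join a library poorly, while RNAs with a 2′-O-methyl group or a blocked 3′ hydroxyl resist.

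All cells came from a male of 15 days, a C57BL/6 × DBA2 F1 that carried an actin-EGFP transgene (the strain label reads C57BL/6), and grew on mouse embryonic fibroblast (MEF) feeders. The 6 groups had 1 library each: wild type and mhen1-/- cells, each without and with NaIO4 (2 μl at 200 mM), mili-/- cells without it, and RNA bound to MILI in wild type cells, recovered with the antibody MABE363 from Millipore. The knockouts were made with Cas9 and guide RNAs and grown from picked colonies that were Sanger sequenced, so clone and genotype cannot be told apart, and reads of this size cannot check the edits. The treatment asked which small RNAs carry a modified 3′ end. With 1 library per group no test was possible, so ratios describe these libraries, and the 95% intervals cover counting error only. Untreated wild type is the denominator of 4 of the 5 comparisons.

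Libraries held 2604390 to 25240941 reads of 18 to 35 nt, so that 3 reads, the most that a count of 0 allows, came to between 0.119 and 1.15 rpm (reads scaled to a library of 1000000 reads, all of 18 to 35 nt). What filled the rest of each library differed widely. MicroRNA reads, without those of the Mir5099 locus, made up 192097 rpm in wild type, 15094 with NaIO4, 73744 in the Hen1 knockout, 27211 in the treated knockout, 340458 in the Mili knockout and 8467 in the MILI-bound library, and reads of the Mir5099 locus alone (reads that hold a fixed stretch of 18 bases of its hairpin, a looser rule than the exact match used elsewhere) reached 332996 rpm in the Hen1 knockout with NaIO4. The 8 germ line microRNA hairpins looked at (Mir741, Mir871 and others of their X-linked group) had reads in every library, together 94318 rpm in wild type, 4963 with NaIO4, 33264 in the Hen1 knockout, 9681 in the treated knockout, 171345 in the Mili knockout and 1996 in the MILI-bound library. The 6 fibroblast hairpins, such as Mir199a-1 and Mir143, did too, and did not follow the germ line sum in the Hen1 knockout: together they were at 1918 rpm in wild type, 128 with NaIO4, 1850 in the Hen1 knockout, 654 in the treated knockout, 5503 in the Mili knockout and 199 in the MILI-bound library, and the part of such cells in the snRNA values was not tested. In such bulk libraries, fewer cells of a type and less RNA per cell cannot be told apart.

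Each gene was given a U type by its name, by a motif of 7 bases near its 5′ end (U4, U4atac and U6atac, which no gene here is named for) or by likeness to the genes so typed. U6 had 486 member genes, most of them copies scattered over the genome, U1 73, U2 34, U4 20, U5 10, U6atac 7, U12 4, U11 3, U7 2 and U4atac 1. Many copies are identical, so 48.1% of the reads matched 10 or more genes and only 16.6% matched a gene alone. A further limit is that 14.9% of the reads also matched a transcript of another biotype. Positions are therefore counted from 1 at the first base of 1 reference gene per U type, the one with most reads: Rnu1a1 (chr11:87422867-87423030, plus strand, 164 nt) for U1, Gm23472 (chr1:72236946-72237136, plus strand, 191 nt) for U2, Gm24265 (chr5:115489459-115489599, plus strand, 141 nt) for U4, Rnu5g (chr9:65201726-65201841, minus strand, 116 nt) for U5, Rnu6 (chr17:13432033-13432139, minus strand, 107 nt) for U6 and Gm22710 (chr1:118459141-118459265, minus strand, 125 nt) for U4atac. Each is annotated with the biotype snRNA, a noncoding gene.

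The sequences below are those that the results turn on, mostly among the 3 most read of their U type. The first and last base are in capitals, since the first base is a mark of piRNAs and the last is where NaIO4 acts. The leading U1 and U6 reads are given by position only.
U2, positions 76 to 103 (chr1:72237021-72237048, plus): TccgaggacaatatattaaatggatttT
U2, positions 93 to 116 (chr1:72237038-72237061, plus): AaatggatttttggaactaggagT
U4, positions 38 to 63 (chr5:115489496-115489521, plus): TatccgaggcgcgattattgctaatT
U4atac, positions 58 to 85 (chr1:118459181-118459208, minus): TgctaacgcctgacaacacacctgcatC
U4atac, positions 30 to 55 (chr1:118459211-118459236, minus): TccaatgaacgcgtagtgagggcagT
U5, positions 49 to 75 (chr9:65201767-65201793, minus): AgatttccgtggagaggaacaactctG
U5 of Gm23287, positions 87 to 116, its annotated 3′ end (chr4:117210930-117210959, plus): AattttttgaggtcttgtgcttacaagacT
U12, positions 15 to 41 (chr15:83149658-83149684, plus): TgagtaaggaaaataacgattcggggT
U7, positions 6 to 32 (chr6:124741255-124741281, minus): TtacagctcttttagaatttgtctagC
U1b of Rnu1b1, positions 27 to 53 (chr3:96360065-96360091, minus): TgatcatgaaggtggttttcccagggC
The U1b and the Gm23287 reads were added after their values were seen. Except for U2 93 to 116, U5 49 to 75 and the Gm23287 end, these reads begin with T and are 26 to 28 nt long.

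snRNA fragments were a small share of every library, and their make-up differed more than their total. They made up 0.680% of the reads in wild type (95% interval 0.674 to 0.686), 0.665% with NaIO4, 0.400% in the Hen1 knockout, 0.738% in the treated knockout, 0.768% in the Mili knockout and 0.645% of the MILI-bound library. U2 led in wild type with 37.5% of the snRNA reads, followed by U5 with 23.9%, U1 with 23.8% and U6 with 7.64%. In the MILI-bound library U1 led with 45.9%, and U4atac, from a single gene of the minor spliceosome, held 10.5% against 1.80% in wild type. In the Hen1 knockout with NaIO4, U2 alone held 70.7%. These percentages are of snRNA reads and do not depend on what else the library held.

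**Figure D1:**
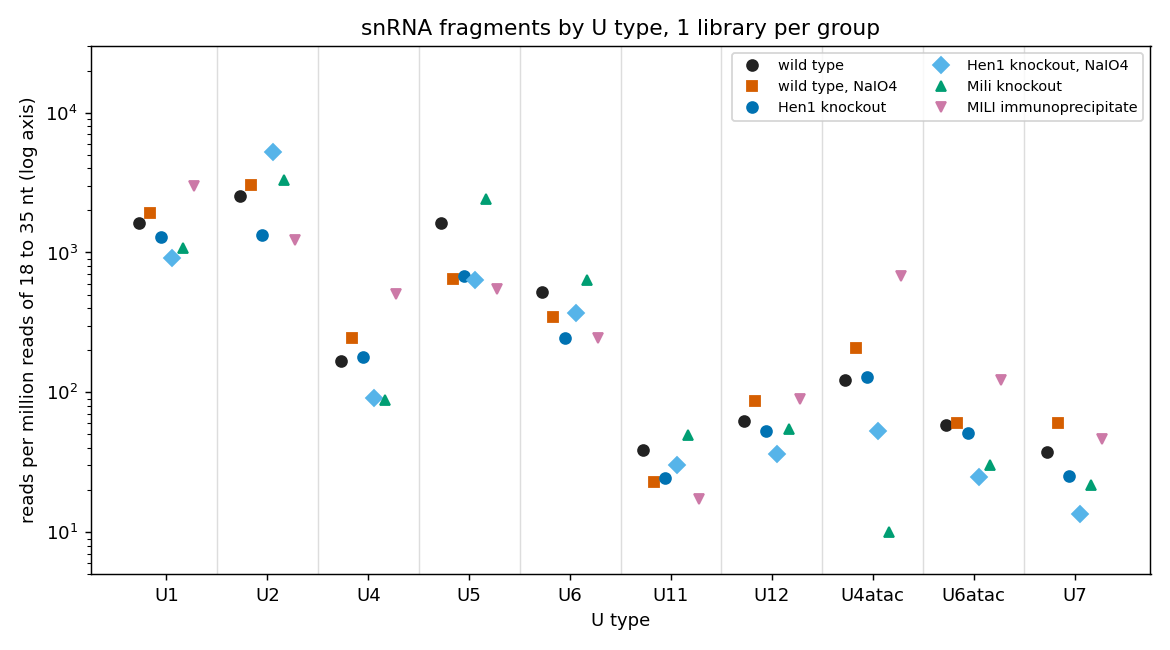
Level in rpm (log axis) for each U type, with 1 point per library. U4atac spans the widest range, from 9.98 rpm in the Mili knockout to 678 rpm in the MILI-bound library.

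U4atac gave the clearest contrast among the U types. Its level was 122 rpm in wild type, 206 with NaIO4, 128 in the Hen1 knockout, 52.6 in the treated knockout, 9.98 in the Mili knockout and 678 in the MILI-bound library. It was 12.3-fold lower in the Mili knockout than in wild type and 5.54-fold higher in the MILI-bound library (5.18 to 5.93). Other U types moved less in these comparisons. U4, its counterpart in the major spliceosome, was at 167 rpm in wild type, 88.8 in the Mili knockout and 506 in the MILI-bound library, a ratio of 0.530 (0.474 to 0.593) and of 3.02 (2.85 to 3.21). U1 was at 1616 rpm in wild type, 1071 in the Mili knockout and 2964 in the MILI-bound library, and U6atac at 58.7, 30.4 and 123. U2, U5, U6 and U11 went the other way: all were higher in the Mili knockout and lower in the MILI-bound library than in wild type, for U5 2421 and 550.4 rpm against 1628. Divided by microRNA reads instead of all reads, the ratio of the MILI-bound library to wild type was above 1 for each of U1, U2, U4, U5 and U6, so for U2, U5 and U6 the direction there depends on the divisor. In the Mili knockout the microRNA share itself was 1.77-fold that of wild type, so every ratio between 1 and 1.77, those of U2, U5 and U6 included, lies below 1 per microRNA read.

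The libraries also differed in the length and first base of the fragments. Reads of 25 to 31 nt that begin with T, the shape of a piRNA, made up 36.0% of the snRNA reads in wild type, 51.5% with NaIO4, 43.8% in the Hen1 knockout, 14.9% in the treated knockout, 18.1% in the Mili knockout and 74.4% in the MILI-bound library. Over all reads of the same libraries the shares were 32.0%, 54.8%, 46.7%, 16.7%, 5.53% and 63.9%, in the same order of libraries from low to high except that the Mili knockout was the lowest. Among snRNA reads of 25 to 31 nt, 60.5% began with T in wild type, 38.8% in the Mili knockout and 91.1% in the MILI-bound library, against 68.9%, 28.8% and 84.9% over all reads. T makes up 28.2% of the bases of the 10 reference genes. The most common length was 27 nt in wild type, 26 nt in the Hen1 knockout and 29 nt in the MILI-bound library, and 23 nt in the treated Hen1 knockout, where 55.2% of the snRNA reads were 20 to 24 nt long against 25.9% without NaIO4. All reads of those libraries gave 57.3% and 26.1%.

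**Figure D2:**
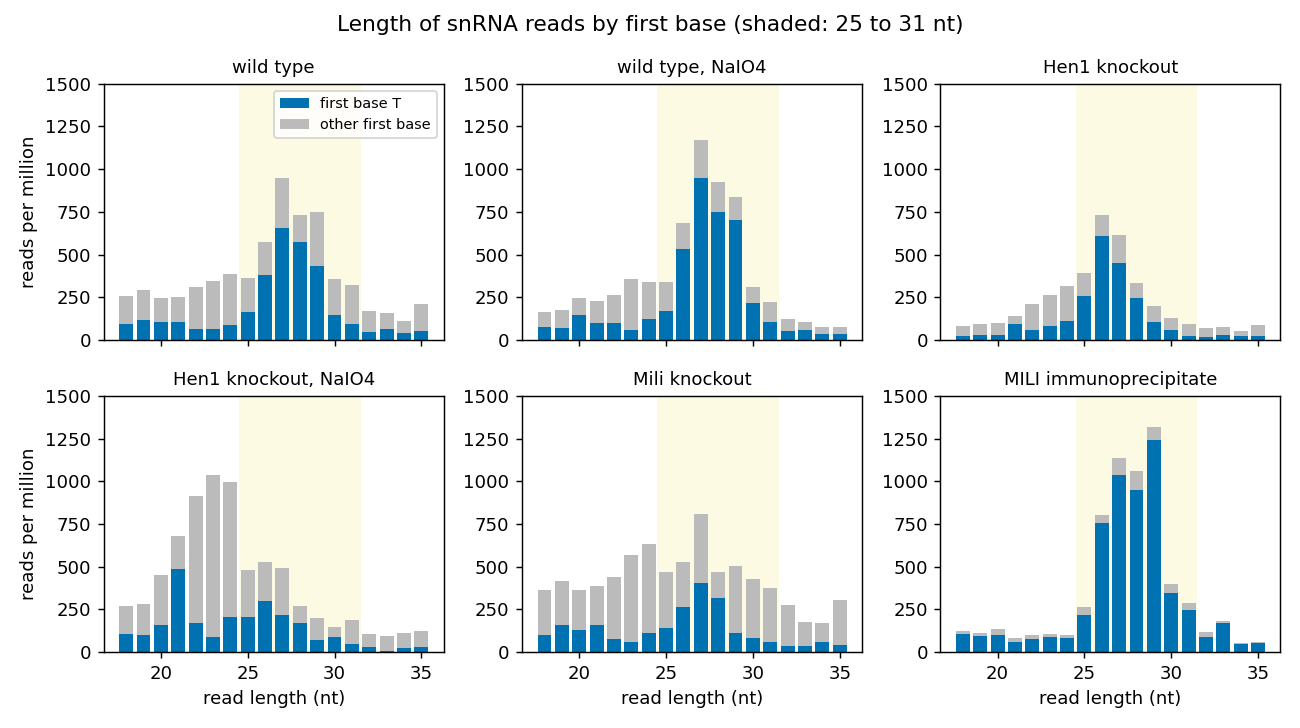
Level in rpm by read length (nt) in each of the 6 libraries, with reads whose first base is T in blue and the others in grey above them; 25 to 31 nt is shaded. Reads that begin with T fill the shaded range of the MILI-bound library, while reads of 20 to 24 nt with other first bases stand highest in the treated Hen1 knockout.

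In the Mili knockout the T-start reads of 25 to 31 nt from the body of the snRNAs were lower, and those from the 3′ ends were not. Reads that neither start in the first 5 nt nor end in the last 5 nt of the gene, called internal here, and that begin with T at 25 to 31 nt, were at 1991 rpm in wild type, 3380.3 with NaIO4, 1631 in the Hen1 knockout, 1057 in the treated knockout, 631 in the Mili knockout and 4768 in the MILI-bound library. The Mili knockout was 3.16-fold lower than wild type (3.04 to 3.28) and the MILI-bound library 2.39-fold higher (2.35 to 2.44). At the 3′ ends, reads of the same shape were at 406 rpm in wild type, 675 in the Mili knockout and 19.6 in the MILI-bound library. Internal reads of any other shape were at 3489 rpm in wild type, 5013 in the Mili knockout and 1525 in the MILI-bound library.

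How much lower the T-start reads were in the Mili knockout differed between U types. For U4atac, T-start reads of 25 to 31 nt went from 105 rpm in wild type to 1.25 rpm (6 reads), which is 84.2-fold lower (38.5 to 230.0). For U12 they were 15.2-fold lower (11 reads in the knockout), for U4 13.9-fold (33 reads) and for U1 6.67-fold, with 114 rpm left of 762. For U2 they were 1.65-fold lower, at 449 against 739.6 rpm. U5 was the exception, at 766 rpm in the Mili knockout against 586 in wild type, 1.31-fold higher per read and below 1 per microRNA read. The U5 class takes in reads at the 3′ end, where U5 fragments of any shape were at 861 rpm in wild type and 1462 in the Mili knockout. Internal U5 reads of any shape were at 724 and 891 rpm, but those that start at position 16, a T, at 44.9 and 1.46. U5 T-start reads were not split into internal and 3′ ones. The U7 value rests on 2 reads in the knockout (20.4-fold lower, 5.40 to 172).

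Single 5′ ends are given as a description, since they were picked from those most read over the 6 libraries together. U1 reads that start at position 62 numbered 812 in wild type (111 rpm), 2240 with NaIO4 (218 rpm), 2802 in the Hen1 knockout (239 rpm), 117 in the treated knockout (44.9 rpm), 0 in the Mili knockout, which allows up to 0.624 rpm, and 16833 in the MILI-bound library (667 rpm). Over the 6 libraries together this was the most read 5′ end on the reference genes, mostly through the MILI-bound library, while the U2 start at 76 had more reads in both wild type libraries, the treated Hen1 knockout and the Mili knockout. U1 reads that start at 45 were at 109 rpm in wild type, 3.95 in the Mili knockout and 587 in the MILI-bound library, and those that start at 66 at 116, 1.87 and 280.0 rpm. These starts too had most of their reads in the MILI-bound library, so their level there follows in part from how they were picked. By contrast the U2 start at 78, a C, was at 221 rpm in wild type, 407 in the Mili knockout and 4.75 in the MILI-bound library. The U2 start at 76, 2 nt upstream, a T, was at 371, 179.9 and 285 rpm. In the MILI-bound library the most common read from that start was the 28 nt sequence shown above, whereas in the Mili knockout it was a 20 nt read ending at 95.

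Counted by sequence, the fold rule (at least 2-fold, for sequences with at least 50 reads in the 2 libraries together) called 54 of 301 snRNA sequences lower in the Mili knockout, 17.9%, where the background over all sequences was 25.8%, and 63 higher, 20.9% against a background of 24.3%. Both shares were below the background. Among them, 44 of 94 T-start sequences of 25 to 31 nt were lower (46.8%), and 10 of 207 others (4.83%). The background was not split by shape, here or for the MILI-bound library, so whether this split is particular to snRNA was not tested. Over all reads the T-start share was 32.0% in wild type and 5.53% in the Mili knockout. In the MILI-bound library, 268 of 582 snRNA sequences were higher (background 54.6%), and 164 were lower, 28.2% against a background of 14.7%. Of the 271 sequences without the T-start shape, 130 were lower (48.0%). With a minimum of 200 reads the shares were near those of all sequences, 56.5% higher against 52.9% and 20.7% lower against 20.4%.

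**Figure D3:**
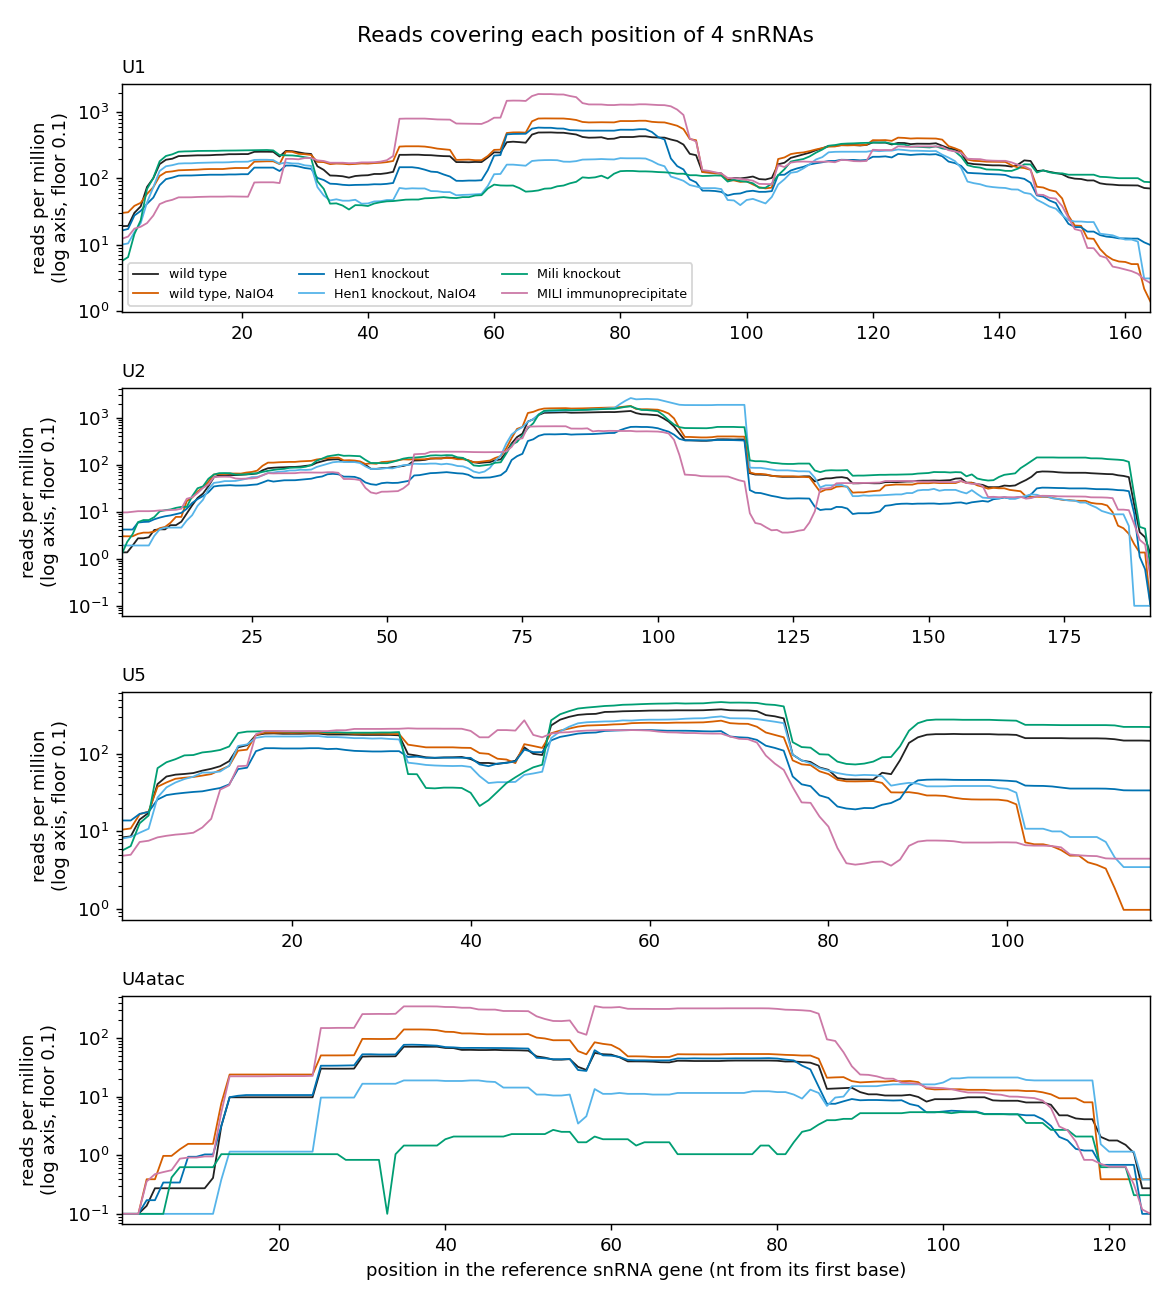
Coverage in rpm of each position (log axis, with 0.1 as the lowest value drawn) along the reference genes of U1, U2, U5 and U4atac, with 1 line per library. The MILI-bound library stands above the others over U1 45 to 90 and U4atac 30 to 85, and drops at the 3′ end of U5.

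Without NaIO4, T-start reads ended earlier in the Hen1 knockout than in wild type. Reads that share a 5′ end were compared in length between wild type and the Hen1 knockout, at ends with at least 50 reads in each library. At 43 of 61 5′ ends with a T the mean length was shorter in the knockout, with a median difference of -0.71 nt. At 5′ ends with another base it was shorter at 17 of 48, with a median difference of 0.12 nt. U1 reads from position 62 were most often 29 nt in wild type (49.1% of 812 reads, ending at 90) and 26 nt in the knockout (61.6% of 2802 reads, ending at 87). In the MILI-bound library 55.3% of the reads from this start were 29 nt.

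Other T starts differed in whether their most common length was shorter in the Hen1 knockout. From U4atac position 58, 28 nt was the most common length in wild type (145 of 207 reads) and 27 nt in the Hen1 knockout (161 of 412 reads), and from U1 position 66 the most common length was 27 nt and 25 nt (means 26.7 and 24.2 nt). From U4atac position 35 it was 26 nt and 24 nt, as these reads show, with the wild type form first.
U4atac, 35 to 60: TgaacgcgtagtgagggcagtactgC
U4atac, 35 to 58: TgaacgcgtagtgagggcagtacT
It was also shorter from U1 position 45 (29 and 27 nt), U2 74 (29 and 26 nt) and U5 16 (31 and 27 nt). Reads from U2 position 76 were most often 28 nt in wild type as in the Hen1 knockout. The most common length was likewise the same from U4 38 and U6 23 (26 nt), U5 46 and U12 15 (27 nt), and U1 27, 67 and 105 (27, 26 and 27 nt). From U2 55 (29 and 33 nt) and U1 60 (18 and 26 nt) it was longer in the knockout. U4atac position 35 was picked for show after its lengths were seen.

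**Figure D4:**
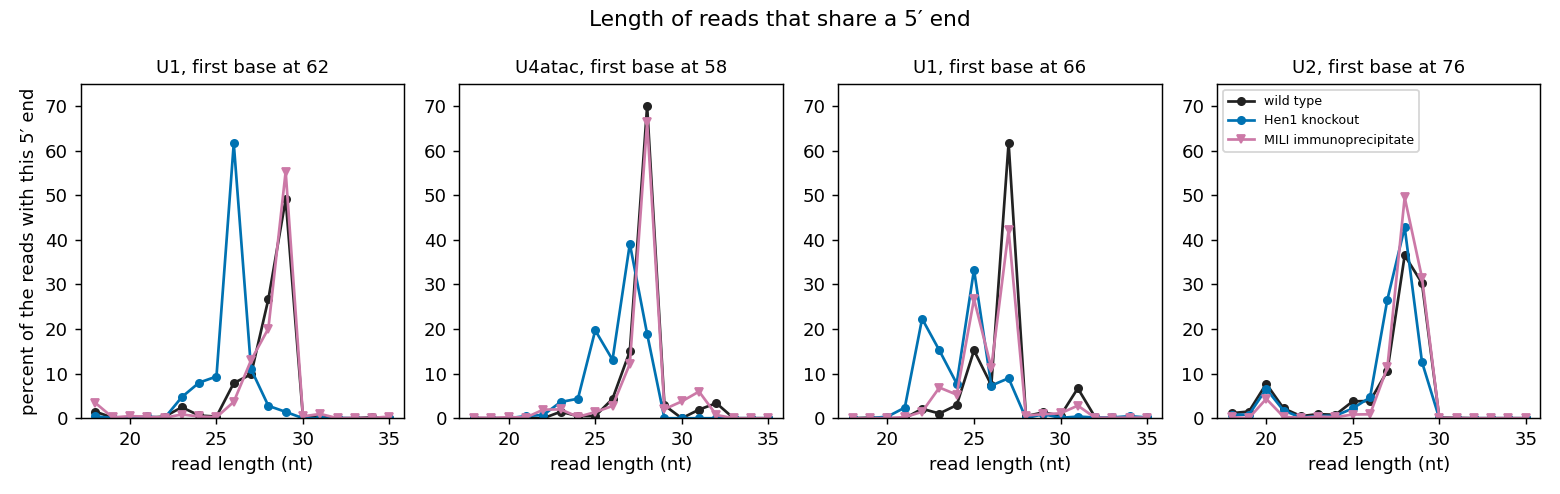
Percent of the reads with a given 5′ end that have each length (nt), for 4 T starts, in wild type, the Hen1 knockout and the MILI-bound library. The U1 start at 62 peaks at 29 nt in wild type and in the MILI-bound library and at 26 nt in the Hen1 knockout, while the U2 start at 76 peaks at 28 nt in all 3.

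Bases added at the 3′ end were also more frequent in the untreated Hen1 knockout than in untreated wild type. A read was counted as extended where its first 18 or more bases matched a member gene and its last 1 to 3 bases did not, leaving out reads whose matched part reaches the annotated 3′ end. Among T-start reads of 25 to 31 nt, 5.11% were extended in wild type (4.80 to 5.43), 4.45% with NaIO4, 13.2% in the Hen1 knockout (12.8 to 13.6), 6.75% in the treated knockout, 0.934% in the Mili knockout and 5.77% in the MILI-bound library. Extension by T alone was at 3.33% in wild type, 2.70% with NaIO4, 8.52% in the Hen1 knockout, 3.96% in the treated knockout, 0.341% in the Mili knockout and 3.95% in the MILI-bound library. The other snRNA reads were extended in 2.98% in wild type, 2.47% with NaIO4, 7.80% in the Hen1 knockout, 1.11% in the treated knockout, 1.80% in the Mili knockout and 7.04% in the MILI-bound library. With NaIO4 these other reads were thus extended less often in the Hen1 knockout than in wild type. Extended U1 reads made up 5.23% in wild type against 15.5% in the Hen1 knockout, and extended U4atac reads 7.53% against 22.8%. U2 and U6 differed less, at 3.15% against 4.66% and 1.40% against 2.57%. Extended U6atac reads made up 21.4% against 26.5%, and extended U7 reads 1.78% against 3.26% (5 and 10 reads). Extension by T alone was lower for U6atac, at 20.5% (17.2 to 24.1) against 16.1% (13.7 to 18.8), intervals that overlap. For U7 it was near level, at 1.42% against 1.30%. Sequence differences between the cells and the reference genes would be counted here too, since no genome was matched.

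U1, U2, U5 and U6 were lower in the untreated Hen1 knockout, and U4 and U4atac were not. The ratio to wild type was 0.414 for U5 (0.403 to 0.426), 0.474 for U6, 0.522 for U2 and 0.798 for U1, while it was 1.07 for U4 (0.995 to 1.15) and 1.05 for U4atac (0.964 to 1.14). Over all snRNA the ratio was 0.589 (0.581 to 0.596), and per microRNA read it was 1.53, on the other side of 1, since microRNA reads were at 0.384 of their wild type share. Of 338 sequences, 185 were at least 2-fold lower, 54.7% against a background of 33.8%, and 53 higher, 15.7% against a background of 30.3%. The share lower was 43.1% of 144 T-start sequences of 25 to 31 nt and 63.4% of 194 others, with no background split by shape.

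With NaIO4 in wild type, the fragments that end at the 3′ end of the snRNA were far lower, and internal ones were not. 3′ fragments, which end in the last 5 nt of the gene, were at 1132 rpm in wild type, 33.9 with NaIO4, 292 in the Hen1 knockout, 45.3 in the treated knockout, 1859 in the Mili knockout and 45.9 in the MILI-bound library. They were 33.4-fold lower in treated than untreated wild type (a ratio of 0.0300, 0.0269 to 0.0334). In the Hen1 knockout the treated library was 6.45-fold lower (5.37 to 7.82). Both NaIO4 ratios, 0.0300 and 0.155, lie below those of microRNA reads in the same libraries, 0.0786 and 0.369, so the direction holds per microRNA read too. In the MILI-bound library the 3′ fragments were 24.7-fold lower than in wild type. MicroRNA reads went from 192097 to 8467 rpm there, so per microRNA read the 3′ fragments were about level. Fragments that start in the first 5 nt were few, at 189 rpm in wild type and 209 with NaIO4, and internal fragments were at 5480 and 6404.0 rpm, a ratio of 1.17 (1.15 to 1.18). Only the internal T-start reads of 25 to 31 nt were higher, at 1991 and 3380.3 rpm, while other internal reads were at 3489 and 3024. Internal reads of U5, U6 and U11 were lower, for U5 at 724 and 597 rpm, and those of the other U types were higher.

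U5 held most of the 3′ fragments in the untreated wild type, Hen1 knockout and Mili knockout libraries. Its 3′ fragments were at 861 rpm in wild type, 5.74 with NaIO4, 214 in the Hen1 knockout, 11.1 in the treated knockout, 1462 in the Mili knockout and 16.0 in the MILI-bound library. They were 150.1-fold lower with NaIO4 in wild type (116 to 197). The 30 nt read at the end of Gm23287, shown above, had 426 reads in wild type and 1 with NaIO4, 196 and 0 in the Hen1 knockout, 594 in the Mili knockout and 5 in the MILI-bound library. Among all 3′ ends with at least 200 reads in the wild type pair, the 5 with the lowest NaIO4 ratio were the annotated last base of U5 (position 116, 151-fold lower), the last base of U1 (position 164, 51.8-fold lower), U2 position 187 (29.9-fold lower), U6 position 105 (20.9-fold lower) and U6 position 64 (a ratio of 0.218). The first 4 lie within 4 nt of the annotated end. U6 position 64 lies 43 nt from it, and its main read, of 35 nt from position 30, went from 60.1 to 2.72 rpm.

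The annotated ends hide part of these fragments. Reads that match up to the last annotated base and then run on by 1 to 3 bases were at 409 rpm in wild type, 29.2 with NaIO4, 147 in the Hen1 knockout, 51.1 in the treated knockout, 680.1 in the Mili knockout and 11.7 in the MILI-bound library. U4 held most of them, at 256 rpm in wild type and 22.6 with NaIO4, 11.3-fold lower (9.90 to 13.1), and U6 80.4 and 1.46 rpm. Since such reads are no exact match, U4 shows 0 reads in wild type among the exact 3′ fragments, and whether the added bases are encoded past the annotated end was not tested.

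Other ends had higher shares with NaIO4 in wild type. The 5 highest ratios among the 88 ends with at least 200 reads were 3.66 for U12 position 41 (2.69 to 5.08), 3.53 for U1 position 141, 3.28 for U2 position 54, 3.02 for U2 position 74 and 2.88 for U5 position 71. U12 position 41 is the last base of the U12 read shown above, which was at 6.42 rpm in wild type, 19.2 with NaIO4, 7.52 in the Hen1 knockout, 0.768 in the treated knockout, 0 in the Mili knockout and 23.2 in the MILI-bound library. Of the 88 ends, 51 had a higher share with NaIO4 and 37 a lower one. T-start reads of 25 to 31 nt went from 2450 to 3426 rpm, a ratio of 1.40 (1.37 to 1.42), and all other reads from 4351 to 3221, a ratio of 0.740 (0.729 to 0.752). By sequence, 89 of 393 were at least 2-fold higher, 22.6% against a background of 29.6%, and 73 lower, 18.6% against a background of 22.2%. With a minimum of 200 reads the first turned, to 26.4% against 20.9%. Per microRNA read the ratio over all snRNA was 12.4 instead of 0.977, and that of U5, 0.396 per read of the library, was 5.04.

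In the Hen1 knockout the classes stood the other way round. T-start reads of 25 to 31 nt went from 1754 to 1104 rpm there, a ratio of 0.629 (0.605 to 0.654), and all other reads from 2249 to 6281, a ratio of 2.79 (2.74 to 2.85). T-start reads of U1 were at 762 rpm without and 272 with NaIO4, of U4 at 129 and 38.8, of U12 at 33.2 and 5.76 and of U4atac at 100.5 and 25.7. T-start reads of U2 were higher, at 335 rpm without and 529 with NaIO4, a ratio of 1.58 (1.49 to 1.68), and those of U6 were at 85.8 and 89.1, a ratio of 1.04 (0.896 to 1.20). Set against wild type as a ratio of ratios, the T-start reads came to 0.450 (0.431 to 0.470), and those of U12 to 0.0863 (0.0505 to 0.147), U4atac 0.144, U4 0.159 and U1 0.204. Those of U2 and U5 came to 0.976 (0.911 to 1.05) and 0.940 (0.835 to 1.06), intervals that include 1. Per microRNA read some directions in the knockout turn: over all reads of the type the ratio was 1.91 for U1 and 1.38 for U4 in place of 0.705 and 0.509, and that of all T-start reads, 0.629, lies above the microRNA ratio of 0.369. The T-start ratios of U1 (0.357), U4 (0.300), U12 (0.174) and U4atac (0.256) lie below it and keep their direction, though the interval of U1, 0.330 to 0.385, includes it. The share of T-start reads among snRNA reads has no such divisor: it was 43.8% without and 14.9% with NaIO4 in the Hen1 knockout, and 36.0% and 51.5% in wild type. All reads of these libraries differed alike (46.7% and 16.7%, 32.0% and 54.8%).

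U2 was the snRNA that stood out with NaIO4 in the Hen1 knockout. It was at 1331 rpm without and 5219.6 rpm with NaIO4, a ratio of 3.92 (3.83 to 4.01), against 1.20 in wild type. Position 116 was the most read 3′ end over the 6 libraries together. It was at 281 rpm in wild type, 328 with NaIO4, 299 in the Hen1 knockout, 1794 in the treated knockout, 506 in the Mili knockout and 34.9 in the MILI-bound library. The ratio was 1.17 in wild type (1.10 to 1.23) and 5.99 in the Hen1 knockout (5.73 to 6.26). The leading read there, positions 93 to 116 above, went from 74.3 to 364 rpm. U2 position 95 was at 166 and 290.5 rpm in wild type and 46.7 and 494 in the Hen1 knockout, ratios of 1.75 and 10.6 (9.55 to 11.7).

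Beside these values stands that the Hen1 knockout library with NaIO4 was the smallest, with 2604390 reads, and that its Mir5099 share was 3.89-fold that of the untreated knockout. Per read of that locus, the ratio of all snRNA was 0.474 instead of 1.84, and the U2 ratio of 3.92 is about that of the locus itself, so that per read of the locus U2 was level. Per microRNA read the U2 ratio was 10.6. Of 219 snRNA sequences, 92 were at least 2-fold higher, 42.0% against a background of 14.3%, and 93 lower, 42.5% against a background of 71.5%. The lower ones included 66 of 100 T-start sequences of 25 to 31 nt, and the higher ones 78 of 119 others. Here too the background was not split by shape.

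**Figure D5:**
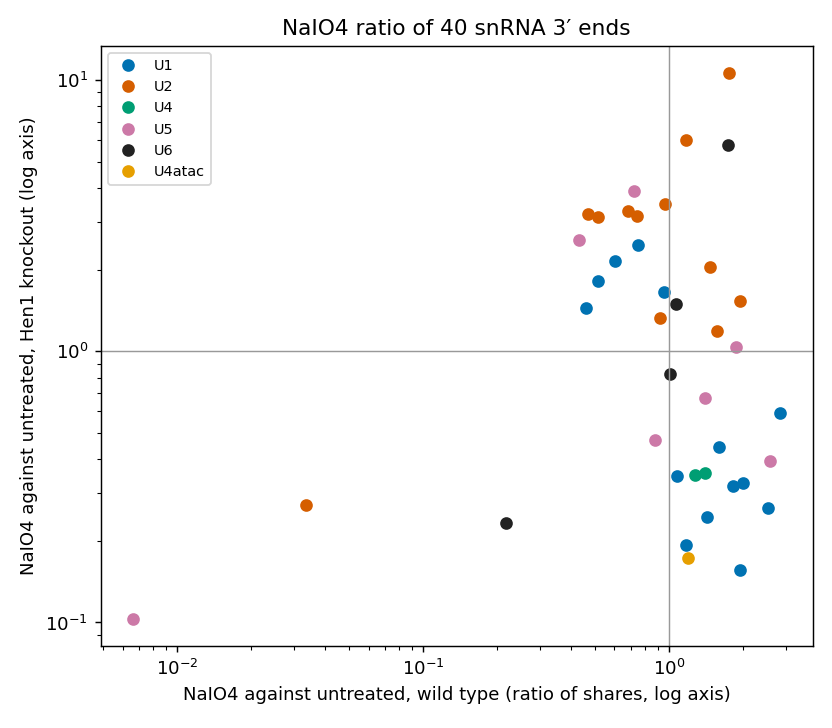
NaIO4 ratio (share with NaIO4 over share without, log axes) of 40 snRNA 3′ ends, wild type against Hen1 knockout, coloured by U type; grey lines mark a ratio of 1. The 2 U2 ends at positions 116 and 95 stand high in the knockout, and the last base of U5 lies far to the left.

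Over the 40 ends with at least 200 reads in both pairs, 15 were higher with NaIO4 in wild type and lower in the Hen1 knockout, 13 the reverse, 8 higher in both and 4 lower in both. U1 position 90 is among the first: it was at 90.0 and 163 rpm in wild type and at 39.9 and 12.7 in the Hen1 knockout, ratios of 1.82 (1.66 to 1.99) and 0.318 (0.216 to 0.452). It was at 5.41 rpm in the Mili knockout and 512 in the MILI-bound library. U1 position 92, with ratios of 2.53 and 0.264, was at 101 rpm in wild type, 3.54 in the Mili knockout and 228 in the MILI-bound library. The U2 ends at 101 and 102 had wild type ratios of 0.965 and 1.47, against 3.48 and 2.05 without Hen1.

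snRNAs carry internal 2′-O-methyl groups set by guide RNAs, and a fragment that ends on such a base would resist NaIO4 without Hen1. Of 21 positions listed from general knowledge in U1, U2, U4, U5 and U6, all 21 had the listed base in the reference gene, and they are 2.84% of the positions an end could take. Ends on them made up 0.891% of the reads on these genes in wild type, 1.16% with NaIO4, 1.47% in the Hen1 knockout, 1.82% in the treated knockout, 0.377% in the Mili knockout and 2.00% in the MILI-bound library. With NaIO4 they were higher relative to other ends by 1.31 times in wild type (1.14 to 1.50) and 1.24 times in the Hen1 knockout (1.07 to 1.45). Of these reads, 35.2% ended at U4 position 65. It had 90 reads in wild type, 185 with NaIO4, 157 in the Hen1 knockout and 7 in the treated knockout, libraries that differ in size. Per read of the library, this end was 1.46 times as high with NaIO4 in wild type (1.13 to 1.90). In the Hen1 knockout it was 4.99-fold lower with NaIO4 (2.37 to 12.6). Without U4 position 65, the listed ends were higher relative to other ends by 1.27 times in wild type and 1.79 times in the Hen1 knockout. Ends within 1 nt of a listed position went the other way, from 8.08% to 7.07% with NaIO4 in wild type and from 10.6% to 5.36% in the Hen1 knockout. U2 positions 116 and 95 are not on the list.

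The base after a fragment's end was T more often than T's share of the genes (28.2%) for reads outside the T-start class. It was T for 49.3% of these reads in wild type, 60.2% with NaIO4, 47.2% in the Hen1 knockout, 72.8% in the treated knockout, 51.4% in the Mili knockout and 37.6% in the MILI-bound library. For T-start reads of 25 to 31 nt it was 35.9% in wild type, 35.3% with NaIO4, 28.2% in the Hen1 knockout, 49.2% in the treated knockout, 55.8% in the Mili knockout and 24.5% in the MILI-bound library. The MILI-bound T-start reads were thus below the share of T in the reference genes, and those of the untreated Hen1 knockout equal to it. A few abundant ends weigh heavily in these shares.

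Reads that only 1 transcript sequence can give show how copies of a U type differ. Among the U5 genes, Gm25099 was at 291 rpm in wild type and 31.8 with NaIO4, Gm23287 at 321 and 17.0, Rnu5g at 159 and 6.42 and Gm25313 at 454 reads and 8 reads (0.778 rpm with NaIO4), lower by 9.14-, 18.9-, 24.7- and 79.7-fold. Gm22265 was at 53.5 and 20.4 rpm, 2.62-fold lower (2.21 to 3.11), the least among the 7 U5 genes with such reads listed. Reads shared only by the 2 identical U1b genes (Rnu1b1 and its copy) were at 49.8 rpm in wild type, 92.9 with NaIO4, 43.7 in the Hen1 knockout, 16.9 in the treated knockout, 2.91 in the Mili knockout and 102 in the MILI-bound library.

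Copies of U2 did not move alike in the Mili knockout. Gm25360 on chromosome 1 was at 71.2 rpm in wild type against 104 in the knockout, and Gm22973 on chromosome 12 at 45.1 and 18.5, ratios of 1.46 (1.29 to 1.66) and 0.411 (0.321 to 0.521). U1 reads of Gm22513 numbered 70 in wild type, 23 in the Mili knockout and 1818 in the MILI-bound library, per read of the library 7.53-fold higher there (5.93 to 9.71). U4 reads of Gm24265 alone were at 16.8 rpm in wild type and 60.7 in the MILI-bound library, and those of Gm24407 at 14.5 and 28.1.

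Set beside other classes of structured RNA, snRNA fragments had the ratio nearest to 1 in the MILI-bound library when counted per read of the library, though not per microRNA read, where theirs was 21.5. The ratio to wild type was 0.949 for snRNA (0.939 to 0.958), 0.0237 for snoRNA, which guide RNA modification in the nucleolus, 0.0245 for scaRNA, their kin in Cajal bodies, 0.0441 for microRNA and 0.663 for the biotype misc_RNA, which holds 7SL, 7SK and Y RNAs. snoRNA reads went from 29360.4 rpm in wild type to 695 rpm, and snRNA reads from 6801 to 6452. With NaIO4 in wild type, the ratio was 0.977 for snRNA, 0.269 for snoRNA, 0.151 for scaRNA and 0.656 for misc_RNA.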

How the data were processed

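Small RNA was measured in 6 libraries, 1 per group, named by the labels. The deposited files hold raw counts: each line gives a distinct sequence and its read count, unscaled. The submitters' processing notes name Bowtie, without a version, and the build mm10. How adapters were trimmed is not given in the sources used here. All sequences of 18 to 35 nt, 90.5% to 96.0% of the reads, were matched exactly and in sense to GENCODE M21 transcripts with Python 3.11.15 (numpy 2.4.6, scipy 1.17.1, matplotlib 3.10.9). bwa 0.7.19-r1273 served for matches with up to 1 mismatch. No genome was matched. Of the member genes, 11 were typed by name, 16 by motif, 613 by at least 10 shared words of 8 bases and 2 times the next type, and 1 was not typed.

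Shares have exact Clopper-Pearson intervals and ratios exact conditional binomial intervals (95%), ratios of ratios a log-scale one. They cover counting error only, since reads had no molecular identifiers. The interval code and the matching were tested on simulated data. Spike-ins were not identified. Named items were the gene with most reads per U type, its 3 most read sequences, the 10 most read 3′ ends and the 5 highest and 5 lowest NaIO4 ratios in wild type. The members, lists and rules were chosen with earlier results of these data known. Whether the edits are present could not be checked from reads of this size.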

Additional observations from a re-analysis of the deposited data

Results flagged for a closer look

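NaIO4 moved several groups of snRNA fragments one way in wild type and the other way in the Hen1 knockout, with both counting intervals on their own side of 1. The difference was not tested, since each group had 1 library. Higher in wild type and lower in the Hen1 knockout were U1 (ratios 1.18 and 0.705), U4 (1.47 and 0.509), U12 (1.37 and 0.687), U4atac (1.68 and 0.410), U7 (1.60 and 0.530) and the T-start reads of 25 to 31 nt (1.40 and 0.629). Lower in wild type and higher in the Hen1 knockout were U6 (0.665 and 1.51), all reads outside the T-start class (0.740 and 2.79) and all snRNA reads together (0.977 and 1.84). The opposition depends on the divisor: per microRNA read both ratios were above 1 for U1 (15.1 and 1.91), U4 (18.7 and 1.38), U6 (8.47 and 4.10) and all snRNA. The ratios of U12, U4atac, U7, the T-start reads and the other reads also lie above those of microRNA reads in both genotypes. For U4atac in the Hen1 knockout this is only by a little. Per microRNA read the opposition was thus absent in every group listed. The wild type ratio of all snRNA was 1.03 over 20 to 30 nt.

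Reads that run past the annotated 3′ end of an snRNA lie outside the exact matches. They came to 409 rpm in untreated wild type, where 3 reads would be 0.410 rpm.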

How the results depend on the processing

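No paired analysis was possible because each group had 1 library. Without replicates, 91 of the recomputed values moved beyond their counting interval (for counts of sequences, which have none, by over 1.5 times), 19 changed side of 1 and 23 did neither. In order, values are for NaIO4 in wild type, NaIO4 in the Hen1 knockout, their ratio, and the untreated Hen1 knockout, Mili knockout and MILI-bound libraries against wild type. Per microRNA read the snRNA ratios were 12.4, 5.0, 0.402, 1.53, 0.637 and 21.5, and per Mir5099 read 0.851, 0.474, 0.557, 0.530, 0.609 and 939.9. With the 10 most read sequences per library taken out of the total they were 0.944, 2.79, 2.96, 0.569, 1.32 and 0.840. With up to 1 mismatch they were 0.961, 1.73, 1.79, 0.618, 1.10 and 0.968, and over 20 to 30 nt 1.03, 1.75, 1.71, 0.627, 1.07 and 1.03. Counting each distinct sequence once gave 0.567, 3.47, 6.11, 0.436, 3.61 and 0.235, and leaving out the 5 most read snRNA sequences 0.914, 1.88, 2.06, 0.612, 1.20 and 0.852. Without sequences that match another biotype, those that moved were 1.98, 2.01, 0.578, 1.15 and 0.894, in order from the second. The cause of each change was not tested beyond the divisor itself.

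For U types the order is NaIO4 in wild type, NaIO4 in the Hen1 knockout and MILI-bound. Per microRNA read U1 gave 15.1, 1.91 and 41.6, U2 15.3, 10.6 and 10.9, U4 18.7, 1.38 and 68.6, U5 5.04, 2.55 and 7.67, and U6 8.47, 4.10 and 10.8. Without sequences that match another biotype U1 gave 1.25, 0.637 and 2.05, U5 0.266, 0.853 and 0.186, and U6 0.731, 1.35 and 0.649. Without the most read sequence of the type, U1 moved to 1.15 in wild type and 1.66 MILI-bound, U2 to 1.15, 4.09 and 0.451, U5 to 0.859 in the Hen1 knockout and 0.356 MILI-bound, and U6 to 1.70 and 0.391.

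The share of ends within 1 nt of a listed 2′-O-methyl position was 8.08%, 7.07%, 10.6%, 5.36%, 7.08% and 12.1% in wild type, with NaIO4, Hen1 knockout, that knockout with NaIO4, Mili knockout and MILI-bound, and counting each sequence once gave 2.39%, 2.37%, 2.82%, 2.78%, 1.50% and 3.51%. The NaIO4 ratio without the most abundant such end was 1.79 in the Hen1 knockout.

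At 4-fold, counts of higher sequences were 17 of 393 for NaIO4 in wild type and 28 of 338 for the Hen1 knockout. They were 5 of 301 for the Mili knockout and 150 of 582 for the MILI-bound library. Each of these shares was below that over all sequences, from 1.66% against 3.28% (Mili knockout) to 25.8% against 31.7% (MILI-bound). NaIO4 in the Hen1 knockout went the other way, with 65 of 219 higher (29.7% against 10.1%). Lower ones numbered 46 of 393 for NaIO4 in wild type and 60 of 219 for NaIO4 in the Hen1 knockout. Both shares were below those of all sequences (11.7% against 18.8%, 27.4% against 43.8%). For the Hen1 knockout 87 of 338 were lower, above the share of all sequences (25.7% against 12.5%). For the MILI-bound library 135 of 582 were lower, also above it (23.2% against 11.3%). For the Mili knockout 48 of 301 were lower, below it (15.9% against 23.4%). With at least 200 reads, which leaves fewer sequences, higher and lower counts were 28 and 17, 30 and 19, 13 and 47, 14 and 9, and 104 and 38, for NaIO4 in wild type (of 106), NaIO4 in the Hen1 knockout (of 52), Hen1 knockout (of 84), Mili knockout (of 72) and MILI-bound (of 184). There the shares higher were above those of all sequences for both NaIO4 comparisons (26.4% against 20.9%, 57.7% against 19.8%) and MILI-bound (56.5% against 52.9%). They were below for the Hen1 knockout (15.5% against 23.3%) and the Mili knockout (19.4% against 27.6%). The shares lower were below those of all sequences for both NaIO4 comparisons, above for the Hen1 knockout, and near level for the other comparisons. The library with the fewest reads, Hen1 knockout with NaIO4, limits what could be seen there: 3 reads are 1.15 rpm.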
